A study of Danio rerio with 6 samples.

Results

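Isolated doublets of histone H3 acetylated at lysine 27 (H3K27ac) in the zebrafish melanoma line zcrest are neighbouring pairs of narrow peaks around a short valley. They were chosen from the deposited zcrest H3K27ac peak list. A doublet was a pair of consecutive peaks on 1 chromosome, each under 1000 bases wide, separated by a gap of 50 to 300 bases, with no further zcrest peak within 2000 bases. Of 14805 pairs of neighbouring zcrest peaks with such a gap, 4111 met every condition. Their 8222 peaks made up 16.3% of the 50338 zcrest H3K27ac peaks. Of the other 10694 pairs, 9095 failed on isolation alone, 283 on width alone and 1316 on both.

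H3K27ac marks nucleosomes at active promoters and enhancers. The DNA bound by transcription factors at such elements is often depleted of nucleosomes, so acetylation on either side of it can appear as a pair of peaks with a dip between them. A valley between peaks is therefore a known feature of regulatory elements, although a gap in a peak list can also be a stretch of weaker signal that missed the caller's threshold. Sox10 binds DNA in cells of the neural crest and of the pigment cell lineage and regulates their genes.

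The study mapped chromatin by chromatin immunoprecipitation and sequencing (ChIP-seq), with 1 library per group and no replicates. Both zcrest libraries, H3K27ac and sox10, came from 1 melanoma line of more than 20 passages, whose founder fish had the genotype p53/BRAF/Na with crestin:EGFP and MiniCoopR alone. The third list is H3K27ac of a primary melanoma from a p53/BRAF/Na fish with MiniCoopR;mitf:EGFP, dissected in bulk and dissociated. In bulk tumor tissue, fewer cells with a mark and less of it per cell cannot be told apart. The line and the tumor share the p53/BRAF/Na background and MiniCoopR, and differ in fish, reporter and culture, so these differences cannot be told apart. Cell identity was not checked against marker genes, since no annotation on the build of the files (Zv9) was used here and regions are given by position. The 3 lists held 50338 zcrest H3K27ac peaks, 59760 tumor H3K27ac peaks and 4202 sox10 peaks, and their read depth is unknown.

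The valleys were mostly shorter than 200 bases. Gap lengths had a median of 142 bases, quartiles of 94 and 203 bases, and a range of 52 to 300 bases. No gap in the whole zcrest list was shorter than 52 bases, so the lower limit of 50 bases removed nothing. By length, 1170 gaps (28.5%) measured up to 100 bases, 1083 (26.3%) over 100 and up to 150, 805 (19.6%) up to 200, 584 (14.2%) up to 250 and 469 (11.4%) up to 300. The same classes held 28.1%, 24.7%, 20.2%, 15.2% and 11.8% of all 14805 gaps of this size, so the valley lengths of the doublets were close to those of all such pairs. All these lengths come from the list that chose the doublets and are given as a description.

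Summits of the paired peaks were usually 300 to 500 bases apart. The median distance was 414 bases, with quartiles of 323.5 and 531 bases and a range of 92 to 1312 bases. In classes of 100 bases, distances from 300 bases were the fullest (1205 doublets, 29.3%), followed by those from 400 (961, 23.4%) and from 200 (650, 15.8%). The summit of a peak had a median distance of 112 bases from the edge of the valley. It lay on the valley side of its peak's midpoint in 62.5% of the 8222 peaks. From outer end to outer end, doublets spanned a median of 811 bases (342 to 2060).

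**Figure D1:**
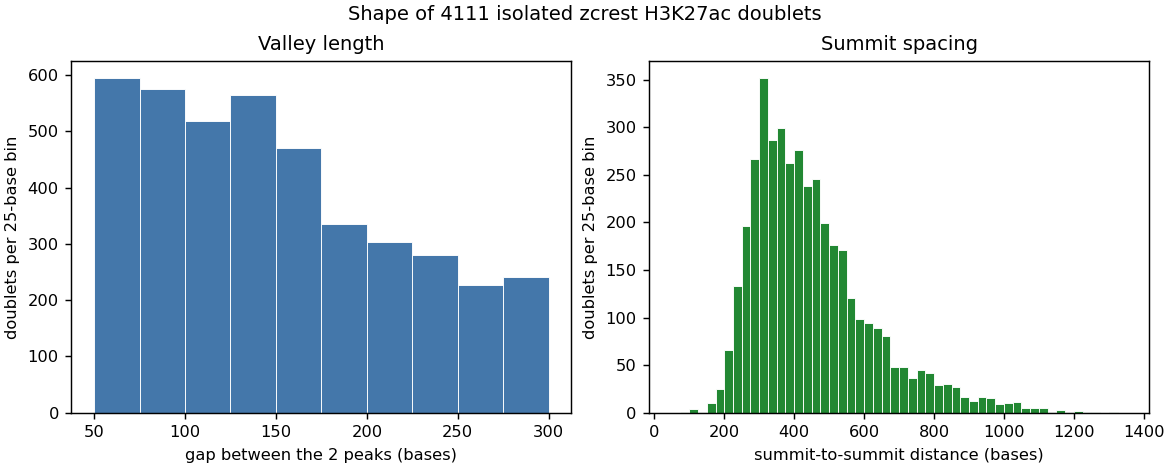
Number of doublets by the length of the gap between the peaks (left) and by the distance between their summits (right), both in bases and in bins of 25 bases (lower edge excluded, upper edge included). Most gaps are shorter than 200 bases. The fullest bin of summit distances, from 300 to 325 bases (352 doublets), lies below the median of 414, and a tail reaches 1312.

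The paired peaks were seldom of equal height. Height here is the fold enrichment over the peak caller's own background, as the authors deposited it. The taller peak had a median fold enrichment of 6.98 and the lower peak 4.56. The ratio of the lower to the taller had a median of 0.70, with quartiles of 0.54 and 0.85. It reached 0.9 in 662 doublets (16.1%) and was at least 0.5 in 3321 (80.8%). Taken as −log10 q, the median ratio was 0.49. The taller peak was the first along the chromosome in 2109 of 4094 doublets (51.5%, exact 95% interval 49.97% to 53.1%), with 17 doublets of equal folds left out. It was also the wider in 65.9% of doublets. The median ratio of folds was 0.70 in isolated pairs with a gap over 300 and up to 1000 bases (1627 pairs) and 0.69 in the other 10694 pairs, so unequal heights were as usual there.

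**Figure D2:**
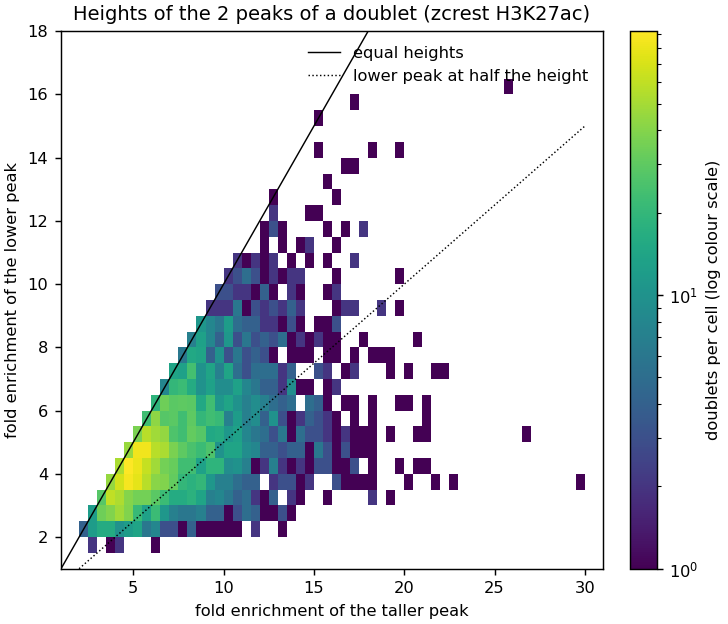
Fold enrichment of the lower peak against that of the taller peak for all 4111 doublets, counted in cells of 0.5 fold on a logarithmic colour scale. The solid line marks equal heights and the dotted line a lower peak at 0.5 of the height, and 80.8% of doublets lie on or above the dotted line.

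The doublets were spread over all 25 chromosomes of the list. The share of a chromosome's zcrest peaks that lay in doublets was highest on chromosomes 1 (21.4%) and 22 (20.4%) and lowest on chromosome 14 (13.5%). Chromosome 4 held 104 doublets, 21 of them from 25 Mb onward and 83 before it. The nearest further zcrest peak was a median of 11329 bases away, and 2227 doublets (54.2%) had none within 10000 bases on either side.

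The tumor list, which had no part in the choice of doublets, shows how far the same places were acetylated in a primary melanoma. A peak or gap was counted as covered when it shared at least 1 base with a tumor H3K27ac peak. Intervals below are exact 95% binomial intervals and cover counting error only. Both peaks were covered in 1342 doublets (32.6%, 31.2% to 34.1%), 1 peak in 1683 (40.9%, 39.4% to 42.5%) and neither in 1086 (26.4%, 25.1% to 27.8%). Among all 14805 pairs with such a gap, both were covered in 30.2% and neither in 29.8%. The doublets' shares are thus within a few percentage points of that background. Taken singly, 53.1% of doublet peaks were covered, against 47.9% of all zcrest peaks and 50.2% of the 13078 lone narrow peaks that had no other zcrest peak within 2000 bases. When at least 0.5 of a peak had to be covered, the share with both peaks fell to 13.7% and that with neither was 45.5%.

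Wider doublet peaks were covered more often. The share was 33.9% (31.9% to 35.8%) for doublet peaks under 200 bases, 44.5% from 200, 56.1% from 300, 68.9% from 400 and 83.3% (80.9% to 85.5%) from 600 to under 1000 bases. A wider peak also offers more bases to touch, and the part this plays was not tested. Lone narrow peaks gave 29.2% (27.8% to 30.6%), 40.1%, 56.6%, 68.7% and 83.7% (81.8% to 85.4%) in the same bands. The intervals of doublet peaks and lone peaks overlapped from 300 bases upward. Below 300 bases they did not, with doublet peaks covered more often by less than 5 percentage points. Both peaks of a doublet were counted singly and are not independent, so the intervals of doublet peaks can be too narrow. The 3254 peaks of the wider isolated pairs, with gaps over 300 and up to 1000 bases, were covered in 42.6%, and in every band less often than doublet peaks, at 24.8%, 36.3%, 45.2%, 62.5% and 73.6%. Of these 1627 pairs, 20.8% (18.9% to 22.9%) had both peaks covered and 35.6% (33.3% to 38.03%) neither. Of the 1022 doublets with spans of 1033 to 2060 bases, 12.6% had neither peak covered, and of the 1029 with spans of 342 to 642 bases, 40.3%.

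The taller peak was the one more often found in the tumor, in doublets and in close pairs at large. It was covered in 59.6% of 4094 doublets and the lower peak in 46.8%, against 56.2% and 44.3% over all pairs with a gap of 50 to 300 bases. Where the taller peak was covered, the lower one was covered too in 54.9% (52.9% to 56.9%), and where it was not, in 34.9% (32.6% to 37.3%). All pairs with such a gap gave 53.7% and 32.2%, near the values of the doublets. In doublets with 1 covered peak, that peak was the taller in 1100 of 1678 (65.6%, 63.2% to 67.8%), near the background of 64.9% among all neighbours with such a gap. Width moved with this result: the covered peak was the wider one in 79.0%. Where the taller peak was also the wider, it was the covered one in 951 of 1154 (82.4%), and where it was the narrower, in 147 of 519 (28.3%, 24.5% to 32.4%). With widths within a ratio of 0.8, the taller peak was the covered one in 154 of 297 (51.9%, 46.0% to 57.7%).

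Tumor peaks often reached into the zcrest valleys. Of the 4111 gaps, 2054 (49.96%, 48.4% to 51.5%) held a tumor base, against 39.9% of all zcrest gaps of this length and 36.0% (35.1% to 36.9%) of the 10694 pairs that failed the rule. The longer gaps of the 1627 wider isolated pairs held one in 49.3%. Tumor peaks covered 914 gaps (22.2%) from end to end, against 18.2% of all gaps of this length and 2.95% of the longer ones. They covered 1366 (33.2%) over at least 0.5 of their length, against 27.1% of all. By bases, they covered 30.9% of gap sequence and 37.1% of the sequence of the doublet peaks. All pairs with such a gap gave 25.6% and 33.3%, and the wider isolated pairs 17.1% and 30.1%. In 12 doublets the gap held a tumor base while neither zcrest peak was covered. Where 1 zcrest peak was covered, the gap also held a tumor base in 826 of 1683 doublets (49.1%). Shares over all pairs are not given here for the 12 and the 826, which are a description.

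A single tumor peak ran across the valley more often than separate tumor peaks covered its sides. Of the 1342 doublets with both peaks covered, 910 (67.8%, 65.2% to 70.3%) were bridged by 1 tumor peak and 432 (32.2%, 29.7% to 34.8%) carried separate tumor peaks. Among all pairs with such a gap and both peaks covered, 60% were bridged. In 126 of the 1342 doublets (9.39%) no tumor base lay in the gap, so in most of the 432 a tumor peak also reached into the valley. That share over all pairs is not given here. Over all doublets, bridging was seen in 22.1% (20.9% to 23.4%) and separate tumor peaks in 10.5% (9.59% to 11.5%), against 18.1% and 12% of all 14805 pairs. The bridging tumor peaks were 525 bases wide and 7.88-fold enriched at the median, and all tumor peaks that touched zcrest H3K27ac were 311 bases wide and 6.96-fold enriched. Bridging peaks were chosen for reaching across a gap, so their greater width is no result. The part of this choice in their fold was not tested. Bridging was less frequent over longer valleys. It was seen in 37.3% (34.5% to 40.1%) of doublets with gaps up to 100 bases, 23.8% up to 150, 15.03% up to 200, 10.1% up to 250 and 7.68% (5.43% to 10.5%) up to 300. All pairs with such a gap gave 28.5% in the shortest class and 7.35% in the longest. A tumor peak must be longer than a valley to bridge it, and the part this plays in the fall was not tested. Separate tumor peaks were seen in 6.32% (5.00% to 7.88%) of doublets in the shortest class, 10.8%, 11.8% and 15.4% in the next ones and 11.9% (9.15% to 15.2%) in the longest, against 8.10%, 10.7%, 13.5%, 16.4% and 16.1% over all pairs. The share of gaps with any tumor base changed little with length, at 51.6% in the shortest class and 46.9% in the longest, with overlapping intervals. All pairs with such a gap gave 39.5% and 40.5%. A longer gap offers more bases to touch, and the part this plays was not tested.

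**Figure D3:**
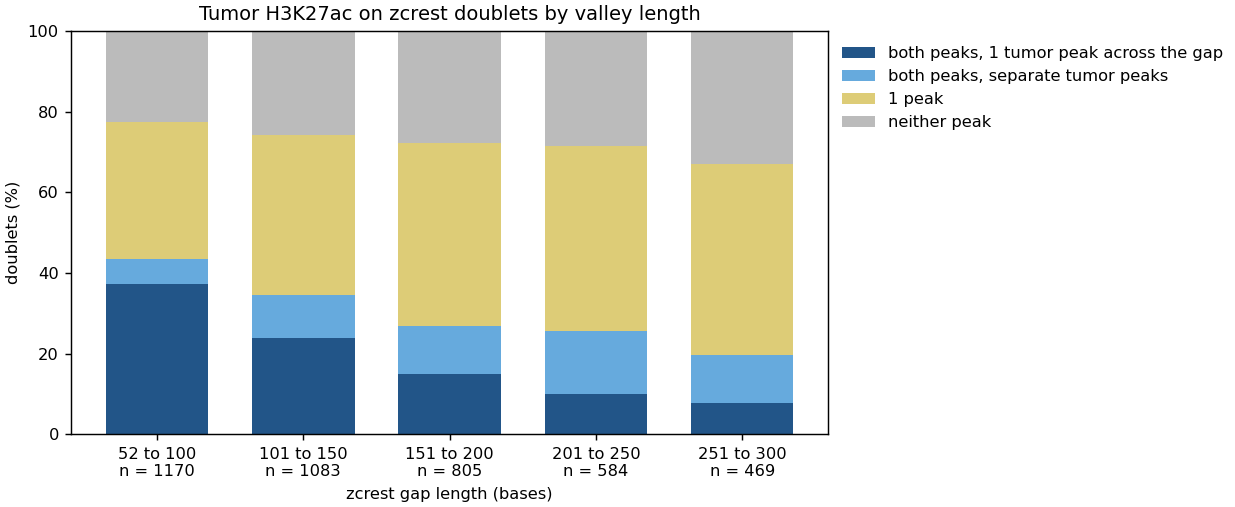
Share of doublets (%) by how tumor H3K27ac peaks cover them, for 5 classes of zcrest gap length in bases with the number of doublets under each bar. The share bridged by 1 tumor peak is 37.3% in the shortest class and 7.68% in the longest.

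Lined up on the valley centre, tumor coverage had a shallow step where zcrest had its valley. At the centre, 32.6% of doublets lay under a tumor peak. At 100 bases from it the share was 39.2% on the side of the taller zcrest peak and 33.0% on the side of the lower one, and the highest share was 41.0%, 180 bases out on the taller side. At 2000 bases it was 1.70% and 1.63%. Tumor summits were sparser in the valley than beside it. Gaps held 438 tumor summits, or 0.70 per kb, against 1.15 per kb in the taller zcrest peaks, 0.91 per kb in the lower ones and 0.088 per kb in the flanks of 2000 bases. Among the 910 bridged doublets the summit of the bridging peak lay in the taller zcrest peak in 394 (43.3%), in the lower one in 255 (28.0%), in the gap in 241 (26.5%, 23.6% to 29.5%) and outside the doublet in 20. The gap made up 22.4% of the doublet bases under those peaks, and held 2.25 bridging summits per covered kb, against 1.87 in the taller peak and 1.59 in the lower one. Position within the tumor peak moved with this result, and its part was not tested. The summits kept to the middle of their peaks (from 0.25 to 0.75 of the width) in 77.0% of bridging peaks, and the gap centre did so in 75.8%. Summit counts and densities are not given here for other zcrest pairs. They are therefore a description and not a trait particular to the doublets.

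**Figure D4:**
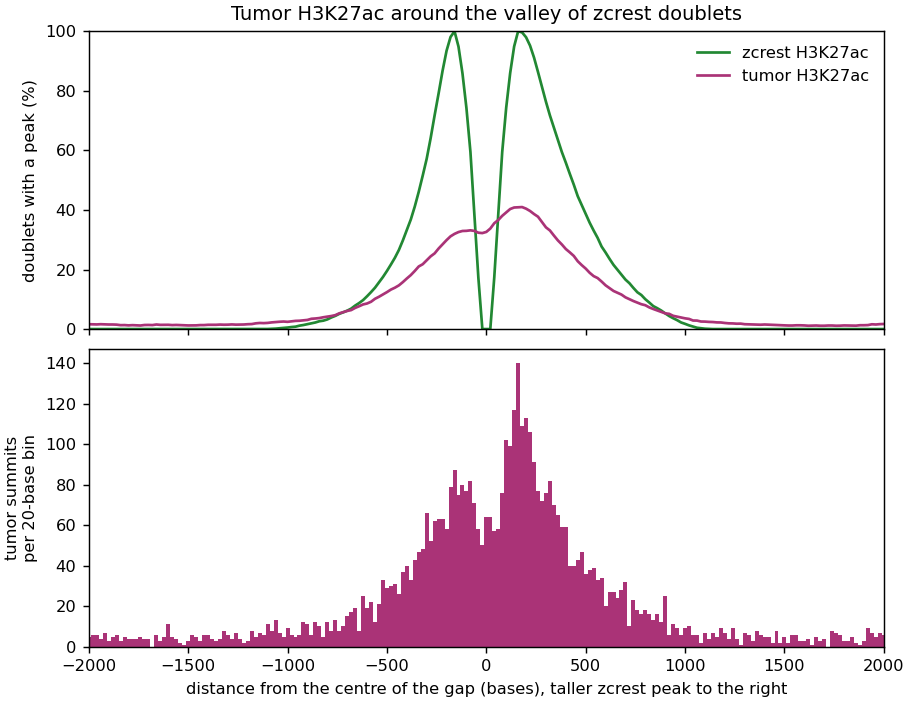
Upper panel, percent of the 4111 doublets with a zcrest (green) or tumor (purple) H3K27ac peak at each distance in bases from the centre of the gap, with the taller zcrest peak to the right. Lower panel, tumor summits per bin of 20 bases. The zcrest valley and empty flanks follow from the rule, while tumor coverage is 32.6% at the centre and reaches 41.0% on the taller side.

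Where separate tumor peaks covered the doublet, both sources had a valley. In these 432 doublets the zcrest gap had a median of 157.5 bases (quartiles 118.75 and 221.25). The tumor gap, which had to lie within the span of the doublet, had a median of 223 bases (128 and 362). The tumor gap measured 50 to 300 bases in 270 (62.5%). Centres of both gaps were a median of 63.75 bases apart and within 50 bases in 191 (44.2%). Gaps of this kind must meet each other by the way they were chosen, so their overlap is no result. The same choice limits how far apart their centres can be. Summit distances had a median of 481.5 bases in zcrest and 526 bases in the tumor, with a Pearson correlation of 0.58 across the 432 doublets, which share the span that chose them. The side with the taller peak was the same in both lists in 243 of 430 doublets (56.5%, 51.7% to 61.3%). That share over all pairs is not given here, so it is a description. Over all doublets, 282 gaps (6.86%) met a tumor gap of 50 to 300 bases, against 6.05% of all 14805 zcrest gaps of this length.

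Most doublets had no separate tumor peak in their flanks. No tumor peak lay on the doublet or within 2000 bases of it in 885 doublets (21.5%). A tumor peak apart from the doublet lay in these flanks in 898 (21.8%), where the rule leaves no zcrest peak. Exactly 1 tumor peak touched the span in 2371 doublets (57.7%), 2 in 619 and 3 in 43. No such shares are given here for other zcrest pairs or peaks. These counts are therefore a description and not a trait particular to the doublets.

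Doublets just inside each limit of the rule were set beside pairs just outside it. With gaps less than 25 bases under the limit of 300 or at it (242 doublets) both peaks were covered in 20.2%, and with gaps up to 25 bases over it (169 pairs) in 21.3%. With the wider peak up to 50 bases under the limit of 1000 (53 doublets) both were covered in 39.6%, and with one at the limit or up to 50 bases over it (46 pairs) in 34.8%. With the next zcrest peak up to 250 bases beyond the limit of 2000 (122 doublets) both were covered in 28.7%, and with one up to 250 bases inside it (164 pairs) in 36.0%. These values are given with no test.

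Sox10 peaks were rare in the valleys. Of the 4111 gaps, 2 (0.049%, 0.0059% to 0.18%) held a sox10 base, against 0.182% of all zcrest gaps of this length (27 of 14805). Between the outer ends of the doublets, 5 carried a sox10 peak, and 10 had one within 2000 bases. On the peaks themselves, 7 of 8222 doublet peaks (0.085%, 0.034% to 0.18%) held a sox10 base, against 60 of 13078 lone narrow peaks (0.46%, 0.35% to 0.59%) and 231 of all 50338 zcrest peaks (0.46%). The sox10 list is short, and a site below its threshold would not be seen.

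Neither doublet with sox10 in the gap had a tumor peak, and their lower peaks, at 3.38-fold and 2.93-fold, were under the median lower fold of the doublets. On chromosome 13 a doublet from 4322050 to 4322876, with fold enrichments of 3.84 and 3.38 and a gap of 141 bases, lay wholly inside a sox10 peak from 4322037 to 4322886. This sox10 peak was 850 bases wide and 31.2-fold enriched, and its edges followed the outer edges of the doublet within 13 and 10 bases. No other sox10 peak lay within 5000 bases of it. The sox10 list had a median width of 85 bases, a median fold of 4.88 and a highest fold of 32.9, so this peak was unusual. Whether the input libraries also had signal there was not tested. On chromosome 1 the doublet from 14470851 to 14471677 (6.69-fold and 2.93-fold, gap of 248 bases) lay in a run of sox10 peaks, of which 3 touched the doublet and 1, with a fold of 7.07, reached 9 bases into the gap. In both doublets the summit of the sox10 peak that reached the gap lay on the first H3K27ac peak. It was at 4322227 on chromosome 13 and at 14471190 on chromosome 1. The other 3 doublets with sox10 on their span had it on a peak, with no sox10 base in the valley. They lay on chr8:2751123-2752075 (sox10 fold 7.66), chr9:27796256-27797016 (5.20) and chr19:27954042-27955024 (4.91).

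The 5 doublets with the highest lower fold were all touched by tumor peaks. They are examples: of the 1028 doublets with a lower fold of 5.81 to 16.4, 20.2% had neither peak covered. Over all doublets that share was 26.4%. Both peaks were covered in 37.6% of those 1028, and in 34.8% of doublets with lower folds of 1.79 to 3.67. Lower folds of 3.68 to 4.56 gave 29.0%, and 4.56 to 5.79 gave 29.1%. Shares by fold over all pairs are not given here. By the fold of the lower peak, the first of the 5 lay on chr24:17554212-17555217, with zcrest folds of 16.4 and 25.8 around a gap of 129 bases. The tumor carried a doublet there too, with folds of 11.7 and 12.9 and a gap of 56 bases. The next 4 were each bridged by 1 tumor peak. They lay on chr17:10608912-10610265 (zcrest folds 17.5 and 15.8), chr22:15865726-15867423 (15.2 and 15.1), chr5:5210372-5211673 (15.4 and 14.5) and chr15:33853968-33854900 (14.3 and 19.8). On chromosome 22 the tumor peak covered the whole valley of 56 bases but only 19 and 124 bases of the zcrest peaks, which were 722 and 920 bases wide.

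Some doublets had a gap in both lists. Among doublets under separate tumor peaks, the one with the highest fold of its lower tumor peak lay on chr24:14119032-14119916, where zcrest folds were 11.1 and 5.73 and tumor folds 23.5 and 21.8. There the whole zcrest gap of 117 bases lay inside the tumor gap of 421 bases. The following 4 had tumor gaps between 68 and 169 bases. They lay on chr18:16595544-16596875 (tumor folds 17.7 and 26.7), chr11:31240003-31240757 (16.8 and 16.0), chr1:47658677-47659567 (16.6 and 14.8) and chr12:46666933-46667877 (14.5 and 16.8). In that order, tumor peaks covered 116 of 214, 46 of 167, 55 of 144 and 167 of 235 bases of the zcrest gap.

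In other doublets the tumor summit stood in the zcrest valley. On chr3:18127853-18128571, a 21.8-fold tumor peak had its summit at 18128303, inside a zcrest gap of 143 bases. The next were on chr17:30611575-30612426 (summit at 30611851, 20.0-fold) and chr8:25944347-25945600 (summit at 25945350, 19.2-fold). In all 3 the zcrest peaks were of unequal height, and on chromosomes 3 and 17 the summit was 14 and 18 bases past the end of the taller peak.

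**Figure D5:**
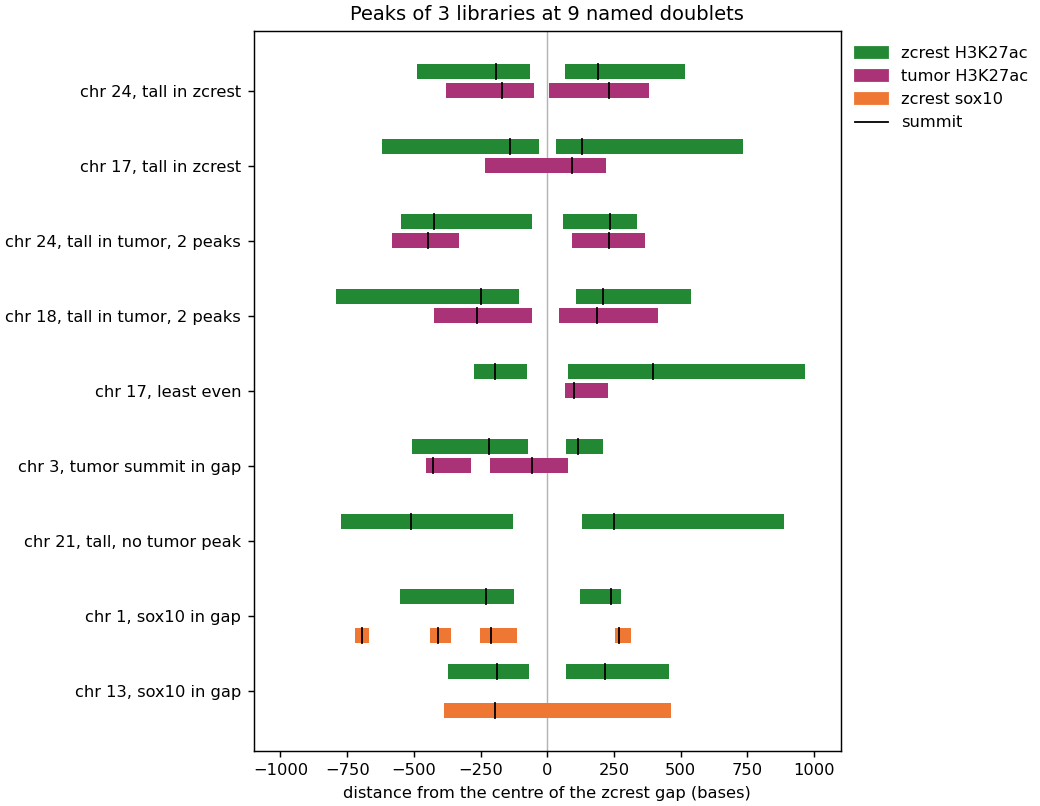
Peaks of the zcrest H3K27ac (green), tumor H3K27ac (purple) and zcrest sox10 (orange) lists at 9 named doublets, by distance in bases from the centre of the zcrest gap, with black ticks at summits. The rows show doublets under separate tumor peaks, valleys bridged by 1 tumor peak, a tall doublet without a tumor peak and both doublets with sox10 in the gap.

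Tall doublets without a called tumor peak were also found, although signal below the tumor threshold would not be seen. The doublets with neither peak covered and the highest lower fold lay on chr21:21804292-21805951 (17.6 and 11.8), chr17:45858919-45860076 (13.4 and 11.3) and chr14:21959794-21960810 (11.1 and 14.2). Their gaps were 260, 188 and 222 bases long. In height symmetry, 3 doublets named for equal folds lay on chr15:677900-678262 (4.53), chr4:3003324-3003861 (4.21) and chr8:7487943-7488695 (6.85). The most uneven was on chr17:49103257-49104495, where a peak of 29.5-fold and 889 bases stood beside one of 3.89-fold and 196 bases. The next were on chr3:45866809-45867921 (18.4 and 3.06) and chr16:26035880-26036853 (3.81 and 22.8). The chromosome 16 doublet was covered by separate tumor peaks that were uneven on the same side, with folds of 5.00 and 14.5.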

How the data were processed

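The submitters' processing notes name Bowtie, the Zv9 build and MACS2 version 2.0. Control, calling thresholds and the version of Bowtie: not given in the sources used here. Each of the 3 deposited lists belongs to 1 library. The authors' deposited lists give a fold enrichment (a linear ratio over the caller's background), the −log10 of p and q, and a score that follows from q. The largest q was 0.0462 in the zcrest H3K27ac list, 0.0487 in the tumor list and 0.0497 in the sox10 list. A caller joins close stretches of signal, and the smallest gap was 52 bases in both H3K27ac lists. Input libraries were not used here.

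Pairs and overlaps were computed in Python 3.11.15 (numpy 2.4.6, pandas 2.3.3, scipy 1.17.1), and the code was checked on simulated data. Positions are 1-based. Shares carry exact Clopper-Pearson 95% intervals for counting error; nearby regions are not independent, and with 1 library per group no p-value was computed. Lists differ in length and their depth is unknown, so folds were used within a list. Doublets and choices of comparison were made with earlier results of these data known. Named doublets follow rank rules: 5 by the lower zcrest fold, 5 by the lower tumor fold under separate tumor peaks, 3 most and 3 least even (equal folds by start), those with sox10 in the gap, 3 by the tumor summit in the gap and 3 uncovered. Of 17 doublets tied at equal folds, 3 were named. Alternatives covered stricter lists, other limits of the rule, coverage of at least 0.5 and other measures of height.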

Additional observations from a re-analysis of the deposited data

How the results depend on the processing

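Of 34 alternatives to 9 values, 13 stayed within 1.5 times for a count or within the 95% interval of the reported value, and 21 moved. With zcrest peaks kept at −log10 q from 5 upward, doublets had both peaks covered in 36.3%, neither in 23.2%, a tumor base in the gap in 53.1% and a median summit distance of 427 bases. With gaps up to 200 bases, both were covered in 36.0% and neither in 25.02%. With peaks under 500 bases, 2569 doublets remained, with both covered in 29.8%, neither in 34.0% and the gap in 47.5%. With tumor peaks kept at −log10 q from 5 upward, the values were 30.7%, 29.6% and 47.4%. With at least 0.5 of each peak or gap covered, they were 13.7%, 45.5% and 33.2%. With height taken as −log10 q, the median ratio was 0.49, and the covered peak was the taller in 77.4%; by width it was the wider in 79.0%. Counting sox10 on the whole span gave 5 doublets, and within 2000 bases 10. Isolation distances of 1000 and 5000 bases gave 4910 and 3088 doublets and moved no share beyond its interval. No replicate could be left out, with 1 library per group. No paired analysis was possible because each group has 1 library. The cause of these shifts was not tested. Read depth is unknown, so an uncovered peak or gap may be signal below the tumor or sox10 threshold.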

Other observations

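The same rule applied to the tumor H3K27ac list gave 2805 tumor doublets, from 7229 tumor neighbours with a gap of 50 to 300 bases. Both sets follow the same limits on gap and width. Tumor doublets had a median gap of 152 bases, a median summit distance of 424 bases, a median height ratio of 0.69 and a median span of 702 bases. Seen in the zcrest list, both tumor peaks were covered in 1140 (40.6%), 1 in 474 (16.9%) and neither in 1191 (42.5%). Where the taller tumor peak was covered by zcrest, the lower was covered too in 77.8%, and where it was not, in 11.2%. A single zcrest peak bridged 721 tumor doublets (25.7%), and separate zcrest peaks covered 419 (14.9%). No such shares are given here over all 7229 tumor neighbours or all tumor peaks. These values are therefore a description and not a trait particular to tumor doublets. The valleys of 187 doublets coincided in at least 1 base in both lists, which is 4.55% of the zcrest doublets and 6.67% of the tumor doublets. By a wider measure, any tumor gap of 50 to 300 bases, 6.86% of zcrest doublet gaps met one. The share was 6.05% over all 14805 zcrest gaps of this length, so the 187 are also a description only.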
